A study of Mus musculus with 2 samples.

Results

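Erythroid genes were measured in bone marrow plasmacytoid dendritic cells (pDCs), the dendritic cells specialised in type I interferon production. The 9 genes were Epor, Klf1, Hemgn, Car1, Car2, Rhag, Ermap, Alas2 and Slc4a1, of 19938 named genes on the arrays. Each was found by its gene symbol in the platform annotation, and each had 1 probe set of its own. The genes were chosen on the values of these same 2 arrays, so their levels and differences are a description and carry no test. One sample was pDCs from chimeric mice reconstituted with Runx2-/- fetal liver cells, which lack the Runt-domain transcription factor Runx2. The other sample was pDCs from chimeras made with wild-type fetal liver cells. In both, marrow was taken 2 months after reconstitution, and cells without CD11b that carried BST2 and B220 were sorted. From each, 250 ng of total RNA was hybridised to 1 Affymetrix Mouse Gene 1.0 ST array. No erythroid surface marker is named in that gate. The labels do not state the number or age of the mice, the recipient strain, or what share of cells came from the recipient, so each genotype is 1 sorted sample of unstated pooling.

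Red cells arise in marrow from progenitors that commit to the erythroid lineage, depend on erythropoietin, and then pass through erythroblast stages in which haemoglobin accumulates and the nucleus is finally expelled. The transcription factors Gata1 and Klf1 drive most genes of this programme, Gata1 through GATA-type sites and Klf1 through CACCC boxes. Reticulocytes, the youngest red cells, have no nucleus but still hold messenger RNA. pDCs are not erythroid cells, and on these arrays the genes of their own identity were bright. All 11 measured pDC markers exceeded the array medians, at log2 intensities of 10.20 to 13.55 in Runx2-deficient pDCs and 10.76 to 13.48 in wild-type pDCs. Siglech, a pDC surface receptor, was at 13.55 in Runx2-deficient and 13.48 in wild-type pDCs. The log2 differences of the 11, Runx2-deficient minus wild-type, ran from -0.68 to 0.24, with a median of -0.048. Of the 11, 7 were below 0, as were 56.7% of all named genes.

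The sequence before the transcription start is shown for 4 of the genes, chosen to cover the 3 stages described below, with differences from Alas2, 3.11-fold lower in Runx2-deficient pDCs, to Klf1, 1.19-fold lower. Of the 9 genes, 6 had an entry in the RefSeq promoter table (build GRCm38.p6), and Slc4a1, Car1 and Car2, with some of the larger differences, did not. The sequences run 5′ to 3′ on the strand of the gene and end before the annotated gene start. Capitals mark GATAA or its reverse complement TTATC, and CACCC or its reverse complement GGGTG.
Alas2, chrX:150547167-150547416, plus strand: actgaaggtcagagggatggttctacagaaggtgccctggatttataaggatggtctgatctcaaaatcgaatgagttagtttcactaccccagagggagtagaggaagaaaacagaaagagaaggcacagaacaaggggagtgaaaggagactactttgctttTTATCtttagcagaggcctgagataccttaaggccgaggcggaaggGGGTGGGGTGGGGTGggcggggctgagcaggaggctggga
Ermap, chr4:119190014-119190245, minus strand: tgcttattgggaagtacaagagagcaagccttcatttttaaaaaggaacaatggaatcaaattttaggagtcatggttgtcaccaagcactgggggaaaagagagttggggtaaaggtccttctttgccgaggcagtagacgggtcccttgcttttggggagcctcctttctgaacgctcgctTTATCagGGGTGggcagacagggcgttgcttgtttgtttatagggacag
Epor, chr9:21963577-21963826, minus strand: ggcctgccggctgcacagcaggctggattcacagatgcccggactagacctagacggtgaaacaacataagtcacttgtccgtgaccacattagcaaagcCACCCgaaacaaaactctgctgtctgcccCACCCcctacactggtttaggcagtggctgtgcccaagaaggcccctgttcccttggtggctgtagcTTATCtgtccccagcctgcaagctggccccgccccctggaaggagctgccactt
Klf1, chr8:84901732-84901981, plus strand: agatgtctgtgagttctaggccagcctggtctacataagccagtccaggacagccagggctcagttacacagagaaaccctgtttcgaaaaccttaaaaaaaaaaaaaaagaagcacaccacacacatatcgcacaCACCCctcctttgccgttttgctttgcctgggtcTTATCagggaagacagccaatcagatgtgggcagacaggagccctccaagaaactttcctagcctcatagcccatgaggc
In the 250 bases before the start given by that table, GATAA was found on either strand in 6 of the 6 promoters, those of Rhag and Hemgn included, and in 22.6% of 32851 RefSeq promoters of the same length. CACCC was found in 5 of the 6, Hemgn being without it, and in 52.0% of all promoters. Both were found in 5 of the 6 and in 10.1% of all promoters. The GATAA of Rhag, which is not printed, lay between the earliest annotated start of the gene and the start used by the table. The motifs did not overlap each other in these 6 promoters, and in Alas2 the 3 CACCC matches, on the strand opposite to the gene, lay side by side. The matches stood in genes with large and with small differences alike, and a match of letters does not show binding.

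**Figure D1:**
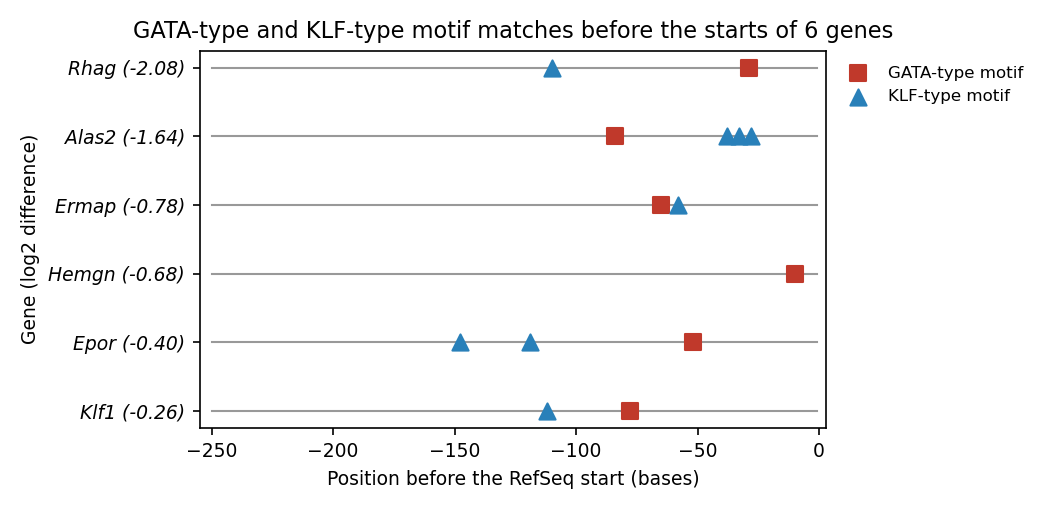
Positions of GATA-type (GATAA, squares) and KLF-type (CACCC, triangles) matches on either strand, in bases before the RefSeq start, for the 6 genes with a promoter entry, ordered by log2 difference (Runx2-deficient minus wild-type, in brackets). All 6 lines carry a square, and the genes at both ends, Rhag at -2.08 and Klf1 at -0.26, carry both symbols.

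The genes placed here with committed progenitors, Epor, Klf1 and Hemgn, had the smallest differences of the erythroid genes chosen. The placing is approximate, and whether these small differences go with stage or with low intensity was not tested. In bulk RNA such as this, fewer cells of a type and less RNA per cell cannot be told apart. Epor encodes the erythropoietin receptor, on which erythroid progenitors depend for survival. Its intensity was 144 units in Runx2-deficient pDCs and 190 units in wild-type pDCs, a log2 difference (Runx2-deficient minus wild-type) of -0.40. Klf1, the erythroid Krüppel-like factor that activates adult globin and many other red cell genes, was at 96.7 units in Runx2-deficient and 115 units in wild-type pDCs, a log2 difference of -0.26. Both genes lay below the median of all named genes on both arrays, which was 7.54 in Runx2-deficient and 7.61 in wild-type pDCs on the log2 scale. Hemgn encodes hemogen, a nuclear protein of blood progenitors and erythroid cells. It was at 157 units in Runx2-deficient and 252 units in wild-type pDCs, a log2 difference of -0.68. It was below the array median in the Runx2-deficient sample and above it in the wild-type sample.

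Among the erythroblast surface proteins and the carbonic anhydrases, 3 of 4 were lower in Runx2-deficient pDCs by 2-fold or more, where 0.647% of all named genes were. Rhag encodes the Rh-associated glycoprotein, which carries the Rh proteins to the red cell membrane. It was at 45.8 units in Runx2-deficient and 193 units in wild-type pDCs, 4.23-fold lower, and neither value reached the array median. With a large offset added before log2 its difference was -0.89, which is under 2-fold, so its place in the counts below rests on dim values. Ermap, a membrane protein of the immunoglobulin superfamily that carries the Scianna blood group in humans, was at 199 units in Runx2-deficient and 340 units in wild-type pDCs, 1.71-fold lower. Its log2 difference of -0.78 was the smallest of these 4.

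Car1 and Car2 encode carbonic anhydrases, which interconvert carbon dioxide and bicarbonate in red cells. Car1 was at 499 units in Runx2-deficient and 1740 units in wild-type pDCs, 3.48-fold lower. It lay above the array medians in both samples, by 1.42 on the log2 scale in Runx2-deficient and 3.15 in wild-type pDCs. Car2, which is also made by osteoclasts and several other cells, was at 96.5 units in Runx2-deficient and 405 units in wild-type pDCs, a log2 difference of -2.07. In the RefSeq gene order these genes stand in one cluster with Car13 and Car3, in the order Car13, Car1, Car3 and Car2. Car13 and Car3 are given for this position. Car13 was at 79.0 units in Runx2-deficient and 85.6 units in wild-type pDCs, a log2 difference of -0.12. Car3, which stands between Car1 and Car2, was at 58.3 units in Runx2-deficient and 78.3 units in wild-type pDCs, a log2 difference of -0.43. Of the 14 other carbonic anhydrase genes measured, 0 were at least 2-fold lower and 0 at least 2-fold higher. Their median log2 difference was -0.091, and 2 of them were at or above the median on either array. Car15 had the highest mean level of these 14, at 8.05 in Runx2-deficient and 7.79 in wild-type pDCs.

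Both genes of haemoglobin-making erythroblasts and red cells were at least 2-fold lower, where 0.647% of all named genes were. They too were chosen on this contrast. Alas2, the erythroid 5-aminolevulinate synthase that starts heme synthesis, was at 134 units in Runx2-deficient and 415 units in wild-type pDCs, 3.11-fold lower. Slc4a1 encodes band 3, the chloride-bicarbonate exchanger that also anchors the membrane skeleton. It was at 168 units in Runx2-deficient and 808 units in wild-type pDCs, 4.81-fold lower, which was the largest difference of the 9. Both genes were below the array median in the Runx2-deficient sample and above it in the wild-type sample.

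**Figure D2:**
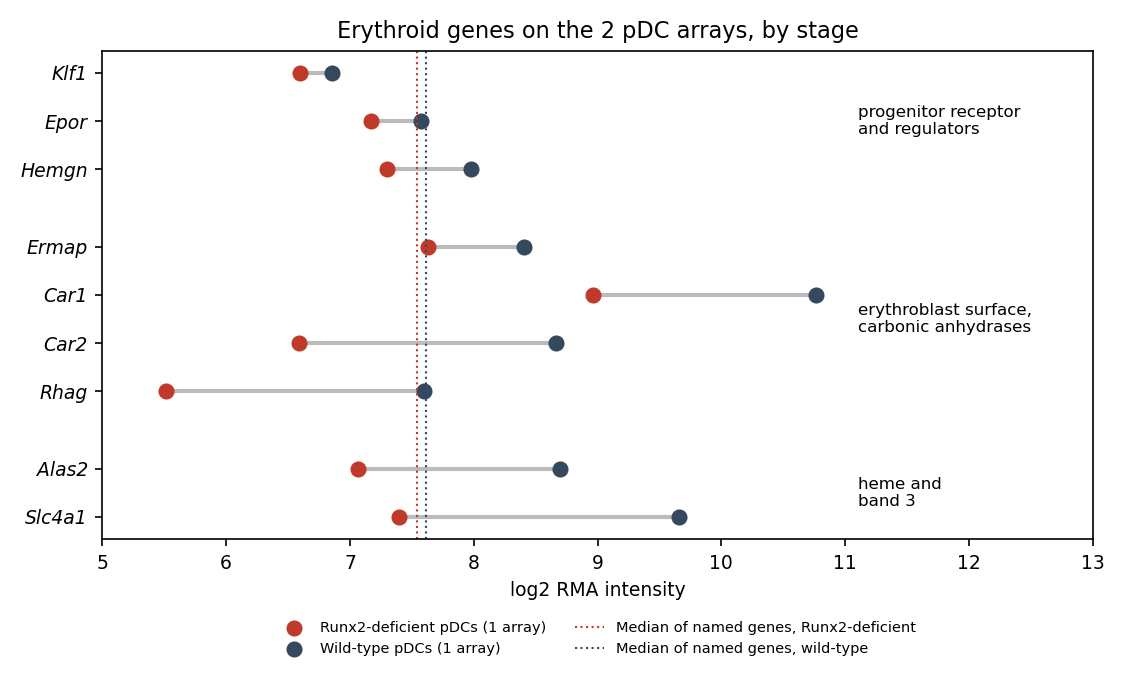
Log2 RMA intensity of the 9 erythroid genes in Runx2-deficient (red) and wild-type (blue) pDCs, 1 array each, ordered by stage from progenitor genes at the top, with the median of all named genes on each array as a dotted line. The red point lies left of the blue point for every gene, with log2 differences of -0.26 for Klf1 and -2.27 for Slc4a1.

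By stage, log2 differences ran from -0.68 to -0.26 for the progenitor receptor and regulators, from -2.08 to -0.78 for the surface proteins and carbonic anhydrases, and were -2.27 and -1.64 for Slc4a1 and Alas2. The stages are approximate and were assigned with earlier results of these data known. The summed intensity of the 3 progenitor genes was 398 units in Runx2-deficient and 557 units in wild-type pDCs. That of the 4 surface protein and carbonic anhydrase genes was 840 units in Runx2-deficient and 2678 units in wild-type pDCs, and that of Alas2 with Slc4a1 was 302 units in Runx2-deficient and 1224 units in wild-type pDCs. RMA narrows differences between dim values. Epor, Klf1 and Rhag were below the median on both arrays, with log2 differences of -0.40, -0.26 and -2.08. The part of dimness in the differences by stage was not tested.

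Over all stages, 5 of the 9 were lower in Runx2-deficient pDCs by 2-fold or more and 0 were higher by that much, where 0.647% of the 19938 named genes were at least 2-fold lower and 0.436% at least 2-fold higher. Since the genes were chosen on this contrast, nothing is read from that count. The median log2 difference of the 9 was -1.64, and that of all named genes was -0.033. All 9 were below 0, as were 56.7% of all named genes. Of the 9, 2, Car1 and Ermap, were at or above the median of named genes on the Runx2-deficient array, and 6 on the wild-type array. The other 3, Rhag, Epor and Klf1, were below it on both. With 1 array per genotype the order of neighbouring differences, such as -2.08 for Rhag and -2.07 for Car2, cannot be told apart from measurement spread.

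Dim and bright genes vary by different amounts on such arrays, so each gene was also set beside the 1000 other named genes closest to it in mean log2 level. Of these, 0 were as low as Rhag, 0 as low as Car2, 2 as low as Slc4a1, 4 as low as Alas2 and 5 as low as Car1. For Hemgn 14 and for Ermap 24 of the 1000 were as low. For Epor 52 and for Klf1 141 of the 1000 were as low. Where another of the 9 was among the 1000, it was counted too. Since the 9 were chosen on this same contrast, these counts only describe where they lie and carry no test.

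**Figure D3:**
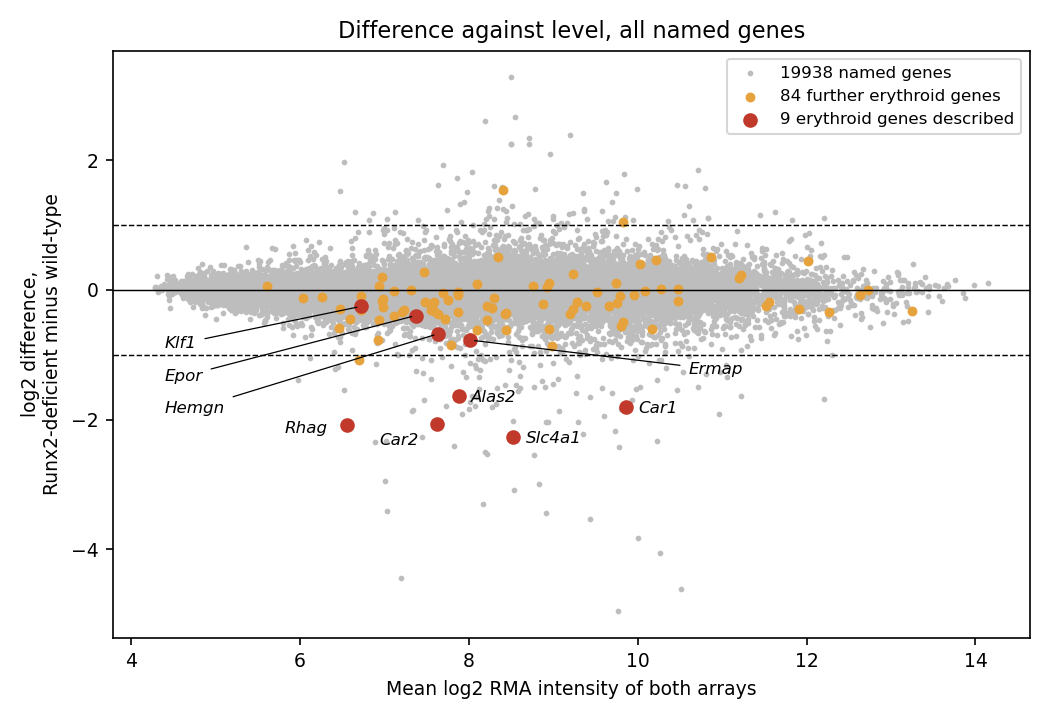
Log2 difference (Runx2-deficient minus wild-type) against mean log2 RMA intensity for 19938 named genes (grey), 84 further erythroid genes (orange) and the 9 described here (red, labelled), with dashed lines at 2-fold. Rhag, Car2, Car1, Alas2 and Slc4a1 lie below the lower dashed line, and Klf1, Epor, Hemgn and Ermap lie between 0 and that line.

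No gene among the 2 nearest to each of the 9 in the plane of the 2 log2 values, the 9 themselves left out, was in the erythroid lists, and 2 arrays give only 2 values to match. Slc4a1 had Camp, a neutrophil granule gene, as its nearest gene, at 7.38 in Runx2-deficient and 9.65 in wild-type pDCs, with 2 named genes within 0.25 log2 units. For Car1 the nearest were Plxdc2, with a log2 difference of -1.85, and Sntb1, at 9.08 in Runx2-deficient and 10.78 in wild-type pDCs. For Car2 they were Ifitm6, with -1.80, and the Y-linked Kdm5d, with -2.27. Kdm5d was at 6.32 in Runx2-deficient and 8.58 in wild-type pDCs. Whether the 2 samples differed in the sex of their cells was not tested. With 1 array each, any effect of such a difference on other genes cannot be told apart from that of genotype. For Alas2 they were Havcr2, with -1.73, and Klk1b27, with -1.91. Rhag had 0 genes within 0.25 log2 units, Sdc2 being the nearest, at a distance of 0.38. Klf1 had 1063 genes within that distance and Epor 627, so many genes at these levels had such a pair of values.

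Further genes of the red cell programme were taken from lists of regulators, signalling, heme synthesis, iron handling, membrane, globins and late maturation. Of 84 measured, 1 was at least 2-fold lower and 2 at least 2-fold higher in Runx2-deficient pDCs, against the 0.647% and 0.436% of all named genes given above. Their median log2 difference was -0.19, where that of all named genes was -0.033, and 62 of the 84 (73.8%) were below 0. At 1.5-fold, 9 of the 84 (10.7%) were lower and 2 (2.38%) higher, where 2.22% of all named genes were lower and 1.73% higher.

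Of the 17 membrane and membrane skeleton genes, 1 was at least 2-fold lower and 0 at least 2-fold higher. The 1 was Rhd, which encodes the Rh blood group protein that assembles with the Rhag product. It was at 71.7 units in Runx2-deficient and 151 units in wild-type pDCs, 2.11-fold lower, below the median on both arrays as Rhag was. The next lowest of that list were Sptb, the erythroid beta-spectrin gene, at a log2 difference of -0.85 and Kel, the Kell blood group gene, at -0.77. Kel was below the median on both arrays. At the other end of the list, Mpp1 was at 0.51 and Cd59a at 0.50. These genes were named after their values were seen. Of the 17, 14 were below 0, with a median of -0.19. Of 13 heme synthesis genes, 0 were at least 2-fold apart, with a median of -0.24. Ppox, an enzyme late in the pathway, was at 10.08 in Runx2-deficient and 10.10 in wild-type pDCs. The mitochondrial carrier gene Slc25a39 was the lowest of the heme list, at -0.87, and Flvcr1 the highest, at 0.24. Both were also named after their values were seen, and 11 of the 13 were below 0.

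Of all named genes, 0.647% were at least 2-fold lower and 0.436% at least 2-fold higher. Of the 16 regulators, 0 were lower by that much and 1 was higher, with a median of -0.30. The higher one was Lyl1, a basic helix-loop-helix factor of blood progenitors related to Tal1, at 1299 units in Runx2-deficient and 633 units in wild-type pDCs, 2.05-fold higher. Of the 10 genes of Kit and erythropoietin signalling, 0 were at least 2-fold lower and 1 at least 2-fold higher, with a median of 0.0071. That gene was Kit, the stem cell factor receptor of early progenitors, at 579 units in Runx2-deficient and 198 units in wild-type pDCs, 2.92-fold higher. Kit and Lyl1 therefore differed in the direction opposite to the 9 erythroid genes. Most regulators did not, with 13 of the 16 below 0. Of the 10 signalling genes, 5 were below 0.

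The 7 iron genes had a median of -0.19, with 0 at least 2-fold apart, and the ferritin gene Fth1 was at 13.08 in Runx2-deficient and 13.41 in wild-type pDCs. The 18 late maturation genes had a median of -0.18, with 0 at least 2-fold apart. Bnip3l, which clears mitochondria from maturing red cells, was at 12.72 in both samples. Of the globin list, 3 genes, all embryonic, had a probe set of their own, with a median of -0.027 and 0 at least 2-fold apart. The adult globins were measured by 4 probe sets that several genes share, which are not in this list, and their log2 differences ran from -3.68 to -3.19. The embryonic globin gene Hba-x was at 7.86 in Runx2-deficient and 7.89 in wild-type pDCs.

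**Figure D4:**
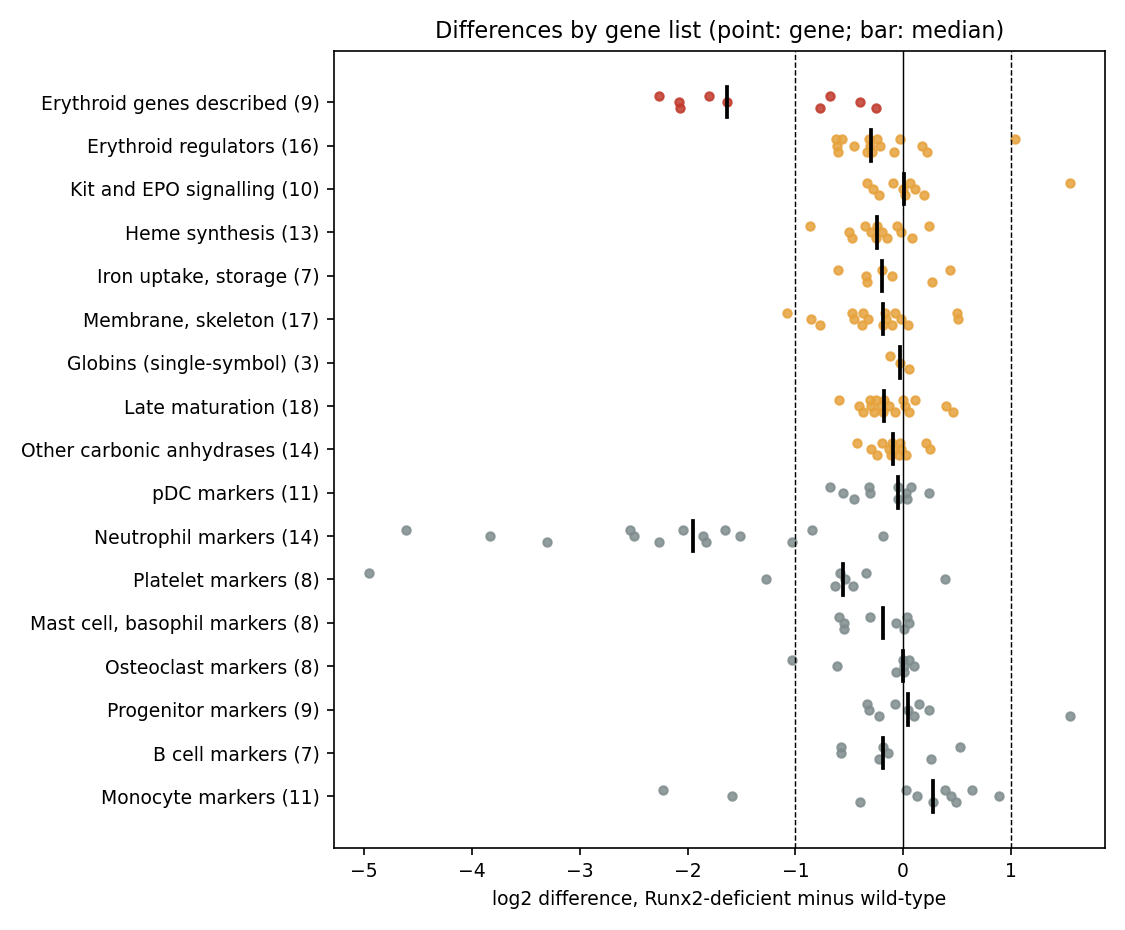
Log2 difference (Runx2-deficient minus wild-type) of each gene, by list, with the number measured in brackets, black bars at the medians and dashed lines at 2-fold. The 9 erythroid genes at the top have a median of -1.64, the other erythroid lists have medians from -0.30 to 0.0071, and the neutrophil markers have a median of -1.95. The globin row holds the 3 embryonic genes and not the adult globin probe sets.

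Markers of some other blood cells moved with the erythroid genes. Of 14 neutrophil markers, 12 were at least 2-fold lower in Runx2-deficient pDCs, where 0.647% of all named genes were. The summed intensity of the 14 was 2683 units in Runx2-deficient and 18833 units in wild-type pDCs. Ngp, Lcn2, S100a8 and S100a9, all genes of neutrophils and their precursors, were 24.4-fold, 14.2-fold, 9.91-fold and 5.79-fold lower. Of 8 platelet markers, 2 were at least 2-fold lower, against the same 0.647%, the platelet chemokine genes Ppbp (31.0-fold) and Pf4 (2.42-fold). The median of the 8 was -0.56, and Itgb3, an integrin chain, was higher, at a log2 difference of 0.38, and is named after its value was seen. The summed platelet intensity was 2628 units in Runx2-deficient and 7788 units in wild-type pDCs, and without Ppbp it was 2472 units in Runx2-deficient and 2950 units in wild-type pDCs. The part of these cells in the erythroid differences was not tested. No marker was at 0 on either array, since the lowest deposited value was 15.3 units.

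The remaining marker lists had medians from -0.19 to 0.28. Their counts at 2-fold stand beside the 0.647% of all named genes that were lower and the 0.436% that were higher. Of 8 osteoclast markers, which bear on Car2, 1 was at least 2-fold lower, Mmp9, which is also a neutrophil gene (2.05-fold), and the median was 0.0029. Of the rest, Acp5 was at 196 units in Runx2-deficient and 299 units in wild-type pDCs, a log2 difference of -0.61, above the array median in both samples. Ocstamp was at 198 units in both and also above the medians, and the other 5 were below them in both samples. Acp5 and Ocstamp are named after their values were seen. Mmp9 was above the array median on the wild-type array alone, so no median is read from the brighter markers. The part of osteoclasts in the Car2 difference was not tested. The 8 mast cell and basophil markers had 0 at least 2-fold apart and a median of -0.19, with Cpa3 at 7.44 in Runx2-deficient and 7.99 in wild-type pDCs. The 9 progenitor markers had a median of 0.045 and 1 at least 2-fold higher, which was Kit. The 7 B cell markers had a median of -0.18 with 0 at least 2-fold apart, Cd79b being at 11.23 in Runx2-deficient and 10.97 in wild-type pDCs. The 11 monocyte and macrophage markers had a median of 0.28. Of these, 2 passed 2-fold, both lower, the chemokine receptor gene Ccr2 at -2.23 and the lysozyme gene Lyz2 at -1.59. These 2 went against most of their list, in which 3 of the 11 were below 0 and the highest log2 difference was 0.89. Over 35556 probe sets the median intensity was 181.7 units in Runx2-deficient and 182.9 units in wild-type pDCs. The level of Runx2 was not analysed here, since no probe set with a single symbol carries that name, and the genotype labels are therefore taken as given.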

How the data were processed

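Expression was measured on 2 arrays, 1 per genotype. The deposited values are linear intensities, 1 per probe set and array, made by the authors with RMA (background correction, normalization and probe summary) per the submitters' processing notes. The software, its version and the set of arrays normalized together were not given in the sources read. The number of arrays limits the precision, and there is no replicate check, standard error or p-value. RMA narrows the differences of dim probe sets, and no detection calls were used.

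Values were taken to log2 and wild-type was subtracted from Runx2-deficient. Of 35556 probe sets, 21789 have 1 gene symbol, 1621 several and 12146 none, and only the first kind was named. A gene with several probe sets took the one with the highest mean. All 9 symbols matched RefSeq by gene identifier. The brightness filter keeps genes at or above the median of named genes on at least 1 array. The genes described, their stages and all lists were chosen with earlier results of these data known. Named genes were, beside the 9, up to 4 of each list in each direction at 2-fold, or otherwise the member with the highest mean level, plus the 2 nearest genes of each of the 9. Sptb, Kel, Mpp1, Cd59a, Slc25a39, Flvcr1, Acp5, Ocstamp, Itgb3, Car3, Car13, Hbb-y and Hbb-bh1 fall outside this rule and were named after values were seen. Alternatives were median centring, quantile normalization, loess (span 0.3), a pseudocount of 32 units and another 4 times as large, the mean of probe sets, stricter filters and 1.5-fold. The calculation was checked on simulated data. The tools were pandas 2.3.3 and numpy 2.4.6 in Python 3.11.15, with statsmodels 0.14.6 for loess and matplotlib 3.10.9 for plots.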

Additional observations from a re-analysis of the deposited data

How the results depend on the processing

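The 9 erythroid genes were below 0 under each of the 6 alternatives to scaling, offset and probe set. The count of 5 at least 2-fold lower was 4 of 9 with the larger offset, where 0.396% of all named genes were. It was 7 of 9 at 1.5-fold, where 2.22% of all named genes were lower. Under the other alternatives on all 9 it was 5 of 9, where 0.527% to 0.702% of all named genes were lower. The brightness filters left 4 of 6 and 4 of 5, where 1.17% and 1.37% of the named genes past them were lower. These counts support nothing, because 4 of the 6 passed through the wild-type array alone. An offset 4 times 32 units, added before log2, moved the median of the 9 to -0.89 and that of the 84 further genes to -0.12, with 0 of the 84 at least 2-fold lower and 1 higher. It took Rhag to -0.89, under 2-fold. Ranges over the 6 alternatives were -2.29 to -1.66 for Slc4a1, -1.85 to -1.57 for Car1 and -1.66 to -1.05 for Alas2. With 32 units, 0 of the 84 were at least 2-fold lower, and 0 of the 62 and 50 genes that passed the brightness filter at the median and at the 60th percentile, which Rhd did not pass. Median centring moved the median of the 84 to -0.12, quantile normalization left 1 at least 2-fold higher, for which the cause was not tested, and at 1.5-fold 9 were lower. No paired analysis was possible because each genotype has 1 array. An offset pulls dim genes towards 0 by its construction, so the sizes for Rhag, Car2 and Alas2 depend on background that these values do not give.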

Other observations

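Adult globin probe sets differed more than any of the 9 erythroid genes. The annotation gives 4 probe sets to adult globins, each shared by several near-identical genes, so no single gene is named from them. The 2 alpha-globin probe sets were at 1071 and 1003 units in Runx2-deficient pDCs and at 10031 and 9139 units in wild-type pDCs, log2 differences of -3.23 and -3.19. The 2 beta-globin probe sets were at 701 and 622 units in Runx2-deficient pDCs and at 7702 and 7969 units in wild-type pDCs, log2 differences of -3.46 and -3.68. All 4 were above the array medians in both samples. The lowest log2 difference of the 9 erythroid genes was the -2.27 of Slc4a1. Of the 1621 probe sets with several symbols, 7 (0.432%) were at least 2-fold lower and 4 at least 2-fold higher, and these 4 globin probe sets are among the 7. These probe sets were picked after values were seen. The embryonic globin genes Hba-x, Hbb-y and Hbb-bh1, which have probe sets of their own, differed by -0.027, -0.12 and 0.051.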
